A study of Arabidopsis thaliana with 6 samples.

Results

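The 5 genes described here are AT1G33055, AT5G66985 and AT4G24110, which encode small or uncharacterised proteins induced by low oxygen, and AT4G10270 and AT4G33560, which belong to the wound-responsive protein family. They were taken by locus from the probe sets that name 1 gene, so they are 5 of 13333 such genes, with 1 probe set each. The genes were picked because earlier results had placed them among the strongest decreases in the mutant. Their difference between the genotypes is therefore given as a description, with no test. RNA came from whole germinating seeds of Arabidopsis thaliana, hybridised to 6 ATH1 arrays, on which short probes for a transcript are combined into 1 signal per probe set. On 3 arrays the seeds came from plants mutant in both genes of peroxisomal malate dehydrogenase, AT2G22780 and AT5G09660, each disrupted by a T-DNA insertion. On the other 3 arrays they came from a wild-type line (source Col-0) that segregated out of an insertion heterozygote. Seeds of both groups had 2 days of stratification at 4 °C, then growth at 22 °C in continuous light on Murashige and Skoog agar with 1% sucrose, to growth stage 0.7. The labels do not say how many mutant lines were used or whether replicates came from separate plants or seed batches, so the spread between arrays may be partly technical.

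Plants sense falling oxygen through transcription factors of the ethylene response factor group VII. With oxygen present, plant cysteine oxidases oxidise the N-terminal cysteine of these factors and mark them for degradation. When oxygen runs short the factors persist and switch on a core set of genes for fermentation, sugar breakdown and proteins of unknown function. Germinating seeds are a tissue in which low-oxygen genes are known to be expressed. All 5 genes here belong to that core set, and what their proteins do is largely unknown. The wound-responsive family consists of short plant polypeptides and is named after transcripts that rise on wounding. AT4G10270 and AT4G33560 respond to low oxygen as well.

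Signals of all 5 genes were lower in every mutant array than in any wild-type array. The same held for 1201 (8.80%) of the 13648 probe sets tested, and the 5 genes were picked as strong decreases. Values are MAS5 signals, which have no physical unit and are scaled so that each array has a trimmed mean close to 100. Levels of different probe sets are not comparable, so each gene is compared with itself.

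AT1G33055, a small protein gene of the low-oxygen core set, had signals of 73.6, 45.6 and 61.4 in mutant replicates 1, 2 and 3 and of 329, 323 and 449 in wild-type replicates 1, 2 and 3. The group means were 60.2 ± 14.0 in the mutant and 366.8 ± 70.9 in the wild type (SD, n = 3 each). The groups were far apart, with the lowest wild-type signal 4.39 times the highest mutant signal, the widest gap among the 5 genes. On the log2(signal + 10) scale, where 10 is a pseudocount that damps noise near background, the difference (mutant minus wild type) was −2.43 (SE 0.16), a 5.38-fold lower value.

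AT5G66985, another small protein gene of that set, had signals of 119, 65.6 and 100.6 in the mutant replicates and of 488, 423 and 465 in the wild-type replicates. Wild-type arrays lay close together (459 ± 33.2, SD, n = 3), while mutant arrays were more spread for their level (95.1 ± 27.2, SD, n = 3), with replicate 2 the lowest. The coefficient of variation was 28.5% in the mutant and 7.24% in the wild type. The log2 difference was −2.19 (SE 0.16), or 4.56-fold lower.

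AT4G24110, an uncharacterised gene, had signals of 39.0, 28.0 and 31.5 in the mutant replicates and of 153.9, 110.0 and 112.4 in the wild-type replicates. Wild-type replicate 1 stood above the other wild-type arrays, and the groups did not overlap (means 32.9 ± 5.59 and 125.4 ± 24.7, SD, n = 3 each). The log2 difference was −1.65 (SE 0.16), or 3.14-fold lower, the smallest of the 5. The pseudocount reduced it most for this gene, and without one the difference was −1.93.

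AT4G10270, of the wound-responsive family, had signals of 187, 133 and 206 in the mutant replicates and of 837, 625 and 603 in the wild-type replicates. As for AT4G24110, wild-type replicate 1 was the highest array, and mutant replicate 2 the lowest. The means were 175 ± 37.9 and 688 ± 128.9 (SD, n = 3 each), and the log2 difference was −1.92 (SE 0.16), or 3.79-fold lower.

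AT4G33560, the other member of that family, had signals of 65.4, 29.8 and 57.1 in the mutant replicates and of 223, 237 and 204 in the wild-type replicates. Mutant replicate 2 lay well below the other mutant arrays, and the coefficient of variation in the mutant, 36.7%, was the largest of the 5 genes, against 7.35% in the wild type. The log2 difference was −1.98 (SE 0.19), or 3.94-fold lower, close to that of AT4G10270.

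**Figure D1:**
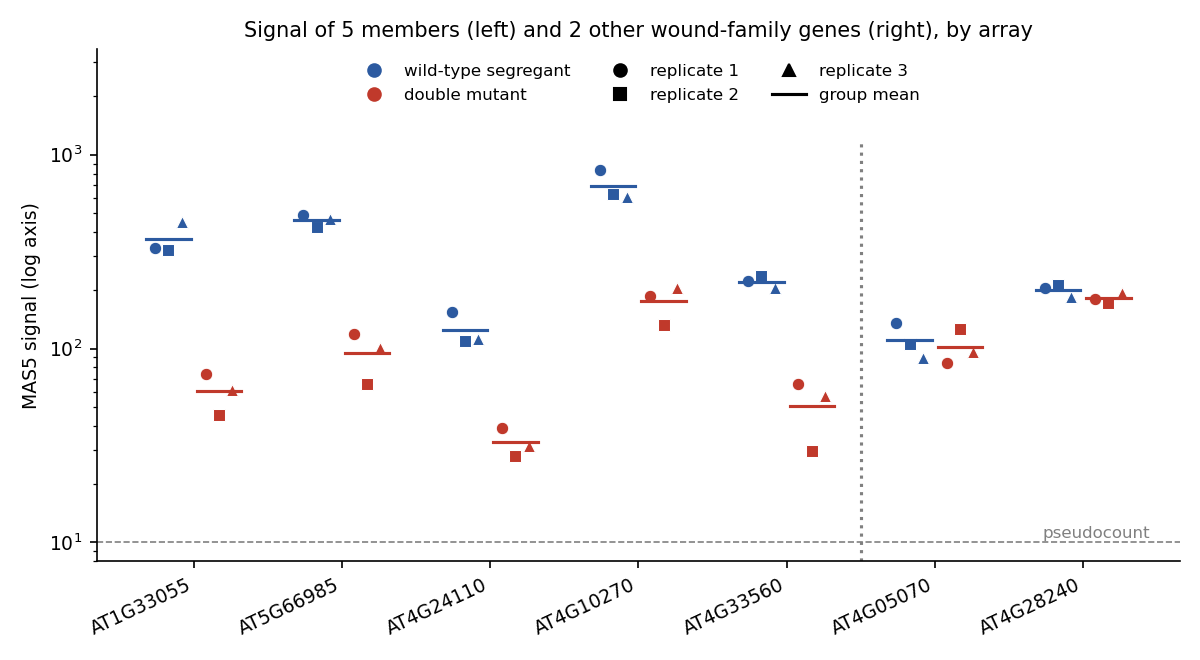
MAS5 signal (log axis) of the 5 genes and of AT4G05070 and AT4G28240, the other wound-family genes measured, in each array. Points are arrays with the replicate shown by shape, and horizontal bars are group means. For the 5 genes on the left, which were picked for their decrease, every mutant point lies under every wild-type point. The groups overlap for the 2 genes on the right, which were not picked so, and the dashed line is the pseudocount of 10.

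Read against the whole array, these differences were among the largest decreases, as the choice of the genes implies. Over the 13648 probe sets tested, 516 (3.78%) were called different by limma at a Benjamini-Hochberg adjusted p under 0.05 and 249 (1.82%) were called lower in the mutant. With each array centred on its median, 474 of 653 calls were lower. All 5 genes were among the 249, but since they were chosen on this contrast that count supports nothing. They ranked 2, 5, 10, 11 and 17 among all tested probe sets by size of decrease, in the order AT1G33055, AT5G66985, AT4G33560, AT4G10270 and AT4G24110. Only 18 tested probe sets (0.132%) were lower by at least 3-fold, and in 24 (0.176%) the highest mutant signal was at most 50% of the lowest wild-type signal. All 3 mutant values lay below all 3 wild-type values in 8.80% of probe sets tested. The median log2 difference over all of them was 0.05.

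Among themselves the 5 genes kept much the same order of difference however the values were processed. AT1G33055 had the largest decrease, AT5G66985 the next and AT4G24110 the smallest as reported and under all 10 alternatives that can move a value. AT4G10270 and AT4G33560 changed places under 3 of them. The gap between their differences of −1.92 and −1.98 lies well within the spread between replicates (pooled SD 0.29 and 0.36 on the log2 scale). The 5 genes are thus separated by up to 0.78 on the log2 scale, while the pooled SD of a single gene was 0.22 to 0.36. The gap between AT1G33055 (−2.43) and AT5G66985 (−2.19) is also smaller than their pooled SDs of 0.28 and 0.29. So is the gap between AT5G66985 and AT4G33560. All alternatives draw on the same 6 arrays, so an unchanged order does not show that these gaps would recur in other samples.

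**Figure D2:**
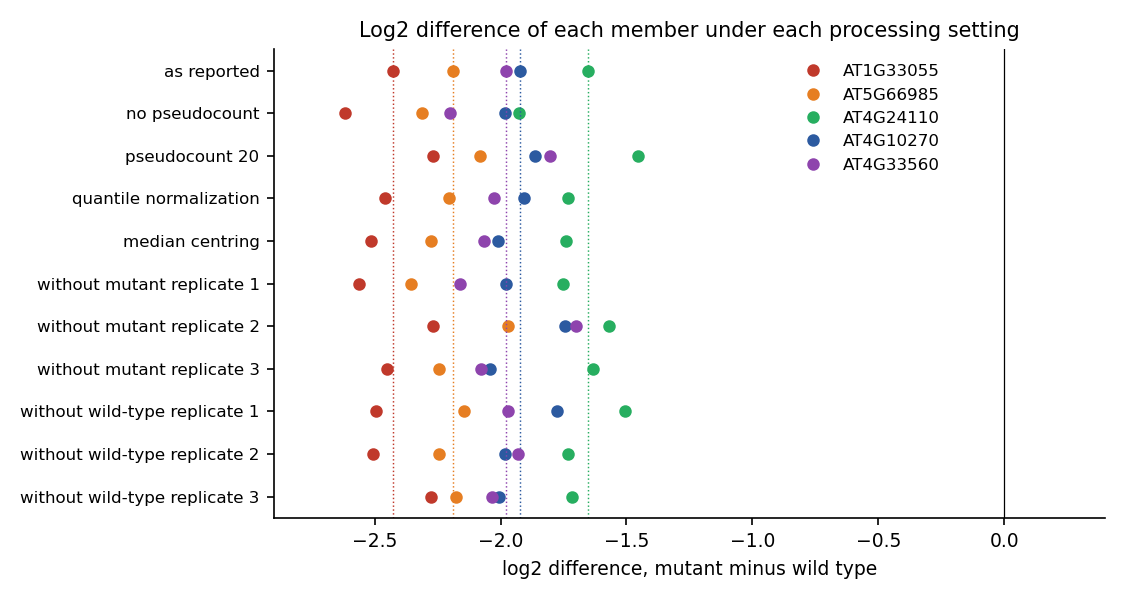
Log2 difference (mutant minus wild type) of the 5 genes as reported and under each alternative that can move it. Dotted lines mark the reported values. All values lie between −2.62 and −1.45, and the order of AT1G33055, AT5G66985 and AT4G24110 is the same in each line.

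Within the mutant group the 5 genes moved together. Mutant replicate 2 was the lowest mutant array for 5 of 5 genes, with a median deviation from the mutant mean of −0.35 on the log2 scale, and mutant replicate 1 lay above the mean by a median of 0.27. Deviations of mutant replicate 2 ran from −0.16 for AT4G24110 to −0.56 for AT4G33560. The 12 other low-oxygen genes called lower dipped there too, with a median of −0.28, and it was the lowest mutant array for 7 of the 12. Over all probe sets tested it was the lowest mutant array for 35.4%, with a median deviation of 0.01. Its log2 ratios of 3′ to 5′ control signal were the lowest of the 6 arrays for actin (2.37, others 2.58 to 3.14) and GAPDH (−0.47, others −0.40 to −0.06). For ubiquitin it lay within the others (1.26, others 1.08 to 1.52). A lower ratio means less 3′ signal relative to 5′ signal, and the part of RNA quality in the dip was not tested. Quantile normalization left the median deviation of the 5 genes in that array at −0.36.

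In the wild type the 5 genes did not share such a pattern. Replicate 1 was the highest for AT5G66985, AT4G24110 and AT4G10270, replicate 3 for AT1G33055 and replicate 2 for AT4G33560. Deviations from group means correlated between genes with r from 0.21 (AT1G33055 with AT4G24110) to 0.91 (AT5G66985 with AT4G33560), with a median of 0.71 over the 10 pairs. These correlations describe 6 arrays that all genes share, with 2 group means removed, and carry no test. Without mutant replicate 2 the log2 differences were smaller, at −2.27, −1.97, −1.57, −1.74 and −1.70 for AT1G33055, AT5G66985, AT4G24110, AT4G10270 and AT4G33560.

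**Figure D3:**
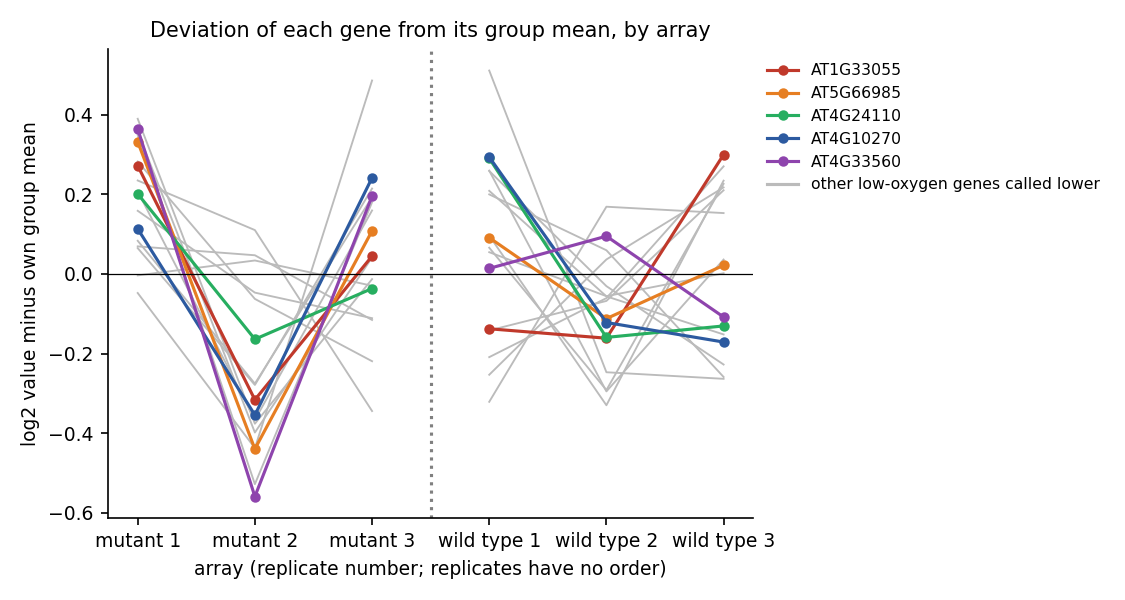
Deviation of the log2(signal + 10) value of each gene from the mean of its own group, in each array. Coloured lines are the 5 genes and grey lines the 12 other low-oxygen genes called lower. All coloured lines dip at mutant replicate 2, by 0.16 to 0.56, and spread without a shared order over the wild-type arrays.

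The 2 other wound-family genes with a named probe set did not pass, and their signals overlapped between the groups. AT4G05070 had signals of 84.1, 125.7 and 96.5 in the mutant replicates and of 134.9, 105.9 and 89.5 in the wild-type replicates. The log2 difference was −0.10 (SE 0.16, 95% interval −0.45 to 0.25, limma adjusted p = 0.81). AT4G28240 had signals of 179.7, 171.5 and 192.8 in the mutant replicates and of 204.9, 211.6 and 185.1 in the wild-type replicates, with a log2 difference of −0.14 (SE 0.12, 95% interval −0.39 to 0.11, adjusted p = 0.60). The intervals allow a decrease of up to 1.37-fold and 1.31-fold, against 3.79-fold and 3.94-fold measured for AT4G10270 and AT4G33560. Since AT4G10270 and AT4G33560 were picked for their decrease, this contrast follows in part from the choice and says nothing of the family. Of these 2 genes 0 were called by limma, and 0 would have been at an unadjusted p under 0.05. The family list held 6 genes, and AT4G10265 and AT2G14070, without a named probe set, were not analysed here. Whether the probes for AT4G10270 also bind transcripts of relatives was not tested. None of the 16 listed genes of jasmonate synthesis and wound response had a named probe set, so the wound response itself was not analysed here.

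Other genes known to be induced by low oxygen were followed with a list of 49, compiled from general knowledge of the response. Earlier results of these data were known when it was compiled, so its counts are a description and not independent support. A probe set naming 23 of them was found, and 19 were bright enough to be tested. In limma 12 of the 19 were lower in the mutant, 0 were higher and 7 did not pass, against 1.82% called lower among all probe sets tested. The median log2 difference of the 19 was −0.71, against 0.05 over all probe sets. Mutant values lay below wild-type values without overlap for 15 of the 19, against 8.80% of all. Without mutant replicate 2, 8 of the 19 were called.

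The largest of these decreases were of the size seen in the 5 genes. AT3G10040, a trihelix transcription factor that restrains the low-oxygen response, had mutant signals of 23.0 to 29.7 and wild-type signals of 157.5 to 220.2 (log2 difference −2.49, SE 0.15, limma adjusted p = 4.72e-08). CML38, a calmodulin-like protein gene, had 8.93 to 25.9 against 110.0 to 119.6 (−2.28, SE 0.20, adjusted p = 1.97e-06). Mutant replicate 2 of CML38 lay under the pseudocount, and the log2 difference was −2.93 without one. AT3G27220, a kelch-repeat gene, had 34.9 to 56.8 against 208 to 292 (−2.17, SE 0.17), and AT2G17850, a rhodanese-like gene, 34.0 to 70.8 against 205 to 297 (−2.05, SE 0.20). In each of these 4 genes the highest mutant signal lay well below the lowest wild-type signal.

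Further called list genes had smaller differences than any of the 5 genes. AT3G29970, a B12D family gene, was 2.67-fold lower (−1.42, SE 0.21, limma adjusted p = 0.00088), and AT3G23170 was 2.47-fold lower (−1.30, SE 0.17). AT3G03270, which encodes a universal stress protein of the low-oxygen response, was 2.28-fold lower (−1.19, SE 0.15) and AT4G27450 1.95-fold lower (−0.96, SE 0.17, adjusted p = 0.00401). With dim probe sets kept in, AT4G27450 did not pass in limma (adjusted p = 0.079). Of the 7 list genes that did not pass in limma, 3 were lower in the mutant at an unadjusted limma p under 0.05. The remaining 4 are those with the largest p. AT5G42200 and AT5G47060 differed by −0.47 and −0.22, and AT1G19530 and AT3G10020 by 0.36 and 0.23 (adjusted p = 0.31, 0.53, 0.32 and 0.49). Their 95% intervals were −0.96 to 0.02, −0.56 to 0.12, −0.02 to 0.74 and −0.11 to 0.57.

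The 4 list genes below the filter were not tested and are named after their values were seen. AT5G04120 differed by −0.02 with overlapping groups, and AT5G45960 and AT2G15880 by −0.53 and −0.87, all with mutant signals under the pseudocount. AT5G10040 had the largest difference of the 4. Its mutant signals of 1.05, 1.82 and 2.32 all lay under the pseudocount. Its wild-type signals were 42.3, 42.3 and 91.1, so the groups did not overlap. The list of oxygen-sensing genes, which holds the group VII factors, cysteine oxidases and the ligase PRT6, had 0 of 11 members with a named probe set and was not analysed here.

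**Figure D4:**
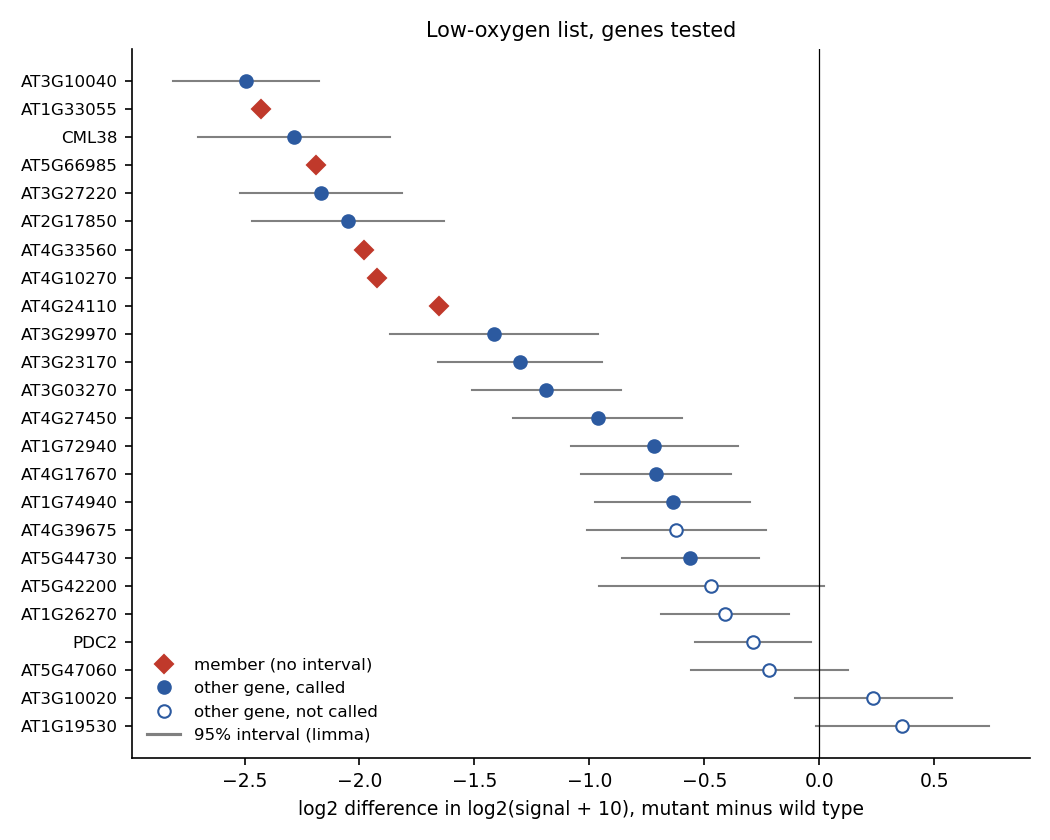
Log2 difference (mutant minus wild type, log2(signal + 10) scale) of the 24 tested genes of the low-oxygen list. Diamonds are the 5 genes described here, without an interval because they were chosen on this contrast, and circles are the 19 others with limma's 95% interval, filled where called. The 5 genes lie between −2.43 and −1.65, and 17 of the 19 others lie below 0.

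Genes outside the list were among those most correlated with the 5 genes across arrays. For each gene the 3 probe sets naming 1 gene with the highest Pearson correlation of log2 values over the 6 arrays were taken from 7319 others. With the genotypes this far apart, a high r reflects mainly the difference between the groups and says nothing of its size. Taking the 3 highest of 7319 values over only 6 arrays also favours a high r, so these values carry no test. AT1G33055 was most like AT3G27220 (r = 0.995), AT1G10160 and AT1G52100 (0.993 each). AT5G66985 was most like AT1G10160 (0.997), AT2G17850 (0.993) and AT4G33560 (0.992). AT1G10160 was among the 3 for AT4G10270 as well (0.989), although its own log2 difference was only −0.34 (limma adjusted p = 0.33, not called).

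AT4G24110 was most like JAL33, a jacalin-related lectin gene (r = 0.996), RR16, a response regulator gene of cytokinin signalling (0.994), and AT3G59980 (0.991). Those 3 differed by −0.66, −0.83 and −0.35 on the log2 scale. AT4G10270 was most like AT3G11510 (0.992), which differed by −0.22, and like AT4G24110 (0.989). AT4G33560 was most like AT4G29890 (0.996), AT5G66985 (0.992) and AT3G08740 (0.992), with log2 differences of −0.46 for AT4G29890 and −0.32 for AT3G08740. Of the genes outside the list, AT3G59980, AT3G11510, AT4G29890 and AT3G08740 did not pass in limma (adjusted p = 0.083, 0.16, 0.18 and 0.080). AT1G52100, JAL33 and RR16 were called lower.

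Genes next to the 5 loci in the TAIR10.1 annotation were looked up too. Among probe sets tested for the 10 loci on each side of each gene, 0 of 22 were called lower and 1 was called higher, so 4.55% were called in either direction against 3.78% of all. The exception was AT4G33550, directly beside AT4G33560. Its signals were 192, 256 and 251 in the mutant and 148.9, 98.6 and 90.9 in the wild type, a difference of 1.00 (SE 0.17, limma adjusted p = 0.00209), opposite in sign to that of its neighbour. AT4G10280, next after AT4G10270, differed by 0.56 (SE 0.16, adjusted p = 0.075), and AT1G33050 and NAC014, on either side of AT1G33055, by 0.08 and 0.14 (adjusted p = 0.88 and 0.75). The value of AT1G33050 turned to −0.0078 under quantile normalization and to −0.0075 under median centring. By their locus names 3 of the 5 genes lie on chromosome 4, 1 on chromosome 1 and 1, AT5G66985, on chromosome 5, where AT5G09660 lies 7274 annotated loci away.

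Other transcripts also differed between the groups, some opposite in direction to the 5 genes and some in the same direction. Of 8 tested seed storage and maturation genes, out of 20 listed, 7 were higher in the mutant in limma, and their summed signal ranged over mutant arrays from 978 to 1264 and over wild-type arrays from 129.8 to 237. Of 7 tested nuclear photosynthesis genes, out of 11 listed, 4 were lower, with summed signals of 8766 to 9562 and 11498 to 13399. Among all probe sets tested, limma called 1.82% lower and 3.78% in either direction. No gene of either list had a signal of 0. These lists mark late embryo and greening tissue, and their part in the results above was not tested. In RNA from whole seeds, fewer cells of a type and less RNA per cell cannot be told apart. Summed signals of 3 dividing-cell genes (mutant 364 to 395, wild type 350.4 to 409.7) and of 2 root hair genes (535 to 642 and 541 to 684) overlapped between the groups, and the 1 endosperm gene with a named probe set fell below the filter. The disrupted genes have no named probe set, so the genotype labels were not checked. The 3′ over 5′ signal ratios of the array's controls for actin, GAPDH and ubiquitin overlapped between the groups, with exact two-sided permutation p = 0.4, 0.8 and 0.6, where 3 arrays against 3 cannot go below 0.1.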

How the data were processed

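The authors deposited 1 linear intensity per probe set and array. MAS5 is the tool named by the submitters' processing notes, with no version. The trimmed mean was close to 100 on every array. Arrays were grouped by the sample labels, 3 per group, and this number limits the precision. Intensities were transformed as log2(signal + 10). Without the 64 controls there were 22746 probe sets, of which 13648 reached the 40th percentile of mean log2 value (5.02) and were tested with limma 3.58.1 in R 4.3.3, mutant minus wild type, no covariate, eBayes with an intensity trend, two-sided, called at a Benjamini-Hochberg adjusted p under 0.05. An SE is limma's moderated one, and intervals are its 95% intervals. On simulated data for this comparison with 13648 probe sets, recovery was 46.6% for a log2 change of 0.5 and 98.7% for a change of 1, with 6.3% of calls false.

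Probe sets were named from the platform annotation, updated through gene identifiers to TAIR10.1, and 13484 of 13513 naming 1 gene matched a locus. A further 503 name several genes and 8730 are unnamed here. No genome build is given with the values, so no coordinates are printed. A locus is represented by its brightest probe set. The text names the 5 genes, wound-family genes with a probe set, the 8 low-oxygen genes with the smallest p and the 4 with the largest, the 3 most correlated genes and the adjacent loci. Genes named otherwise are said to be. The members and lists were chosen with earlier results of these data known. Alternatives changed the pseudocount, filter, normalization, variance model, replicate block, probe sets tested and arrays.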

Additional observations from a re-analysis of the deposited data

How the results depend on the processing

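All 5 genes stayed lower in the mutant under all 16 alternatives, of which 6 cannot move a log2 difference. Under the other 10, 49 of 50 values moved by less than the spread between replicates, the exception being AT4G24110 without a pseudocount (−1.93). With 1 array left out the differences ran from −2.56 to −2.27 for AT1G33055, −2.36 to −1.97 for AT5G66985, −1.75 to −1.51 for AT4G24110, −2.04 to −1.74 for AT4G10270 and −2.16 to −1.70 for AT4G33560. The other low-oxygen genes called lower numbered 12 of 19 as reported and 8 to 14 over all alternatives. They were 8 of 23 without the filter, 10 of 16 with the filter at the 60th percentile and 14 of 19 after median centring. Calls among other wound-family genes stayed at 0. Over all probe sets 228 were called without the filter, 325 without the intensity trend and 211 among probe sets naming 1 gene. Of these 101, 134 and 118 were lower, and 474 of 653 were lower after median centring. With 1 array left out 274 to 702 were called, 134 to 341 of them lower. Leaving out mutant replicate 1, 2 or 3 gave 343, 274 and 321 calls, and leaving out wild-type replicate 3 gave 284. Lower calls were 139 and 152 after leaving out mutant replicate 2 or 3, and 161 and 134 after leaving out wild-type replicate 2 or 3. Only leaving out the filter, filtering at the 60th percentile and keeping probe sets that name 1 gene change how many probe sets enter the test. The cause of the changes in count was not tested. Same-numbered deviations correlated at 0.04, 0.17 and 0.13 and differently numbered ones at −0.16 to 0.03. Every array thus correlated best with its own number, a hint from the data of pairing that the labels do not give. With a replicate block 686 were called, 329 of them lower, and 13 low-oxygen genes.

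Of the 26 other named genes, 2 turned sign. AT4G05070 ran from −0.25 to 0.044 with 1 array left out, above 0 without replicate 1 of either group. AT1G33050 was at −0.0078 under quantile normalization and −0.0075 after median centring, and ran from −0.059 to 0.32 with 1 array left out. AT4G27450 (−0.96) and RR16 lost the call without the filter. AT3G59980, AT3G11510 and AT3G08740 gained it after median centring, and AT4G10280 (0.69) without wild-type replicate 1. The jasmonate list gave no value.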
